A study of Drosophila melanogaster with 3 samples.

Results

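The regions described here are peaks of CG18262-eGFP that lie outside every annotated gene but close to a protein-coding start. They come from the authors' shorter peak list, cut by IDR, the irreproducible discovery rate, which is a measure of how well peak ranks repeat between replicates. A peak was a member when its summit lay in no annotated gene of any biotype and over 500 bp, but no more than 5000 bp, from the closest start of a protein-coding gene in Ensembl's annotation of the BDGP6 assembly (dm6). The rule used position alone, and 867 of 8529 thresholded peaks met it (10.2%, exact 95% interval 9.53 to 10.8%). Of the other thresholded peaks, 3223 lay within 500 bp of a start, 3571 lay elsewhere inside a gene and 868 lay in intergenic sequence more than 5000 bp from a start.

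The series is a chromatin immunoprecipitation and sequencing (ChIP-seq) experiment on whole Drosophila melanogaster embryos of mixed sex, 0 to 16 hours old. All samples came from 1 transgenic line in which the product of CG18262 is stably expressed with GFP at its C-terminal end, and its chromatin was precipitated with an anti-GFP antibody. There was 1 group, with 3 biological replicates and no second genotype, so no comparison between conditions was possible. The input control and an untagged line were not analysed here, and the values therefore describe signal of the tagged protein with no background measured in the same way. Whole embryos mix many tissues and stages, so a peak cannot be assigned to a cell type. The deposited lists hold no read counts, so the depth behind each peak is unknown.

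In the compact fly genome, the intergenic sequence next to a promoter holds much of the regulatory DNA of developmental genes, including enhancers, silencers and insulators. Such elements are read by sequence-specific proteins, among them zinc finger and homeodomain factors, and by factors that bind simple repeats such as GAGAG. ChIP-seq maps where a tagged protein or its partners sit, and the summit is the base where a peak is highest.

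The bases at the summits of the strongest members are shown first because low GC content at the summit recurred across the members. Each sequence covers the summit base and 100 bp to either side on the plus strand, from the RefSeq assembly that corresponds to dm6, and capitals mark runs of 8 or more A or T bases. These 6 are among the 12 strongest members matched in all 3 replicates. They lie at chr2L:12011221-12011421 (nearest start Rh5), chr2L:2202306-2202506 (CG31668), chrX:2124038-2124238 (ph-d), chr3R:5113178-5113378 (CG43131), chr3R:11780199-11780399 (l(3)neo38) and chr3R:12403038-12403238 (DNAlig3).
Rh5 summit: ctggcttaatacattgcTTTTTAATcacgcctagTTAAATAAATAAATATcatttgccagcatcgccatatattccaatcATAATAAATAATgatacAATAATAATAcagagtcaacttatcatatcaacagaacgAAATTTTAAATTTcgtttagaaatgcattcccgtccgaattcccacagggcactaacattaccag
CG31668 summit: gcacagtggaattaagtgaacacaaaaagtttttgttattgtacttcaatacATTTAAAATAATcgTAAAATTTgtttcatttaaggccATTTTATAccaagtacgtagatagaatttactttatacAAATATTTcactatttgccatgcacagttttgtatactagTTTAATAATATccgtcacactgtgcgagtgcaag
ph-d summit: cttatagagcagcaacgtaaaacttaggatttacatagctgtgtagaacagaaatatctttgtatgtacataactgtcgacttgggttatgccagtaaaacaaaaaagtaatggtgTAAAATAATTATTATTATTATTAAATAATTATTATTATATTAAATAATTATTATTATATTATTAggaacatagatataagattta
CG43131 summit: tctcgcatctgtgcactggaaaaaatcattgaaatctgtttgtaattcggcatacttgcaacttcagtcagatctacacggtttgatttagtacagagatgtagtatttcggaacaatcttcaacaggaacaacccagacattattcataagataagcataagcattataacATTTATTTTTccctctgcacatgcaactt
l(3)neo38 summit: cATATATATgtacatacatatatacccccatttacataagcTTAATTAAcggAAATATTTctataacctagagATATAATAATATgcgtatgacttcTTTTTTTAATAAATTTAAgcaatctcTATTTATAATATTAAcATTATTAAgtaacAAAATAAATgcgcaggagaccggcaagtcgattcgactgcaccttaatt
DNAlig3 summit: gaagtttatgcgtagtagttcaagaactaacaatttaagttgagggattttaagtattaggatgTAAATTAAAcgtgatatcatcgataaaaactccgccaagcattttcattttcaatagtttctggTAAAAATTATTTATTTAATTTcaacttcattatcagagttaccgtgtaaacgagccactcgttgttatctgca

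These 6 windows held 22.4 to 35.8% GC. The other 6 of the 12 lie on an arm from which no sequence is shown, and they include the member of highest GC: within 50 bp of the summit, the 12 ranged from 18.8 to 48.5%, the latter beside Shrm. The run of A and T bases beside ph-d was 64 bases long, whereas the CG43131 window held a single run of 10 bases. For contrast, the next pair shows the DNA centred 300 bp to either side of the Rh5 summit, at chr2L:12010921-12011121 and chr2L:12011521-12011721, with 45.8% and 48.8% GC against 31.8% at the summit.
Rh5 lower flank: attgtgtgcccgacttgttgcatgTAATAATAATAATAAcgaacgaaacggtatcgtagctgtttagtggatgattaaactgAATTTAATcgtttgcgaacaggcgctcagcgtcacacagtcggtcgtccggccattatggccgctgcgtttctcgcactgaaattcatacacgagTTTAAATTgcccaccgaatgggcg
Rh5 upper flank: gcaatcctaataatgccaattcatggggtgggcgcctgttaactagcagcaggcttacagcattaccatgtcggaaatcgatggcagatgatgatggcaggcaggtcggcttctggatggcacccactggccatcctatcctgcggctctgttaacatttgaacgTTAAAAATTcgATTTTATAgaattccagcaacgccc

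The last pair shows the strongest members, among those matched in all 3 replicates, that hold AAAATATA or its reverse complement TATATTTT, the 8-base sequence ranked first in a count over part of the chromosome arms that is described with the sequence results. They lie at chrX:9687629-9687829 (nearest start nej) and chr3L:13476900-13477100 (stv). The gene nej encodes a histone acetyltransferase of the CBP family, and stv encodes a co-chaperone.
nej summit: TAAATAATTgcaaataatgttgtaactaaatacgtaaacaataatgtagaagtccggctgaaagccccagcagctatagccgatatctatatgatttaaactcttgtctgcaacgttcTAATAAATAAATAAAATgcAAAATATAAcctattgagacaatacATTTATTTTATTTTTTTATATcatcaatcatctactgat
stv summit: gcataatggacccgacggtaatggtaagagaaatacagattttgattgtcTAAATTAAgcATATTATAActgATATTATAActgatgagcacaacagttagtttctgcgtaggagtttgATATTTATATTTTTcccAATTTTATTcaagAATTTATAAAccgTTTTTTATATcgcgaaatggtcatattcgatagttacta

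The peak with the highest signal value of the whole thresholded list was a member. It lay between the blue-sensitive rhodopsin gene Rh5 and the non-coding gene lncRNA:CR44588 on arm 2L, 2943 bp from the Rh5 start and beyond the 3′ end of that gene. Its signal value was 31193, on a scale that is the authors' and is not stated, and the peak spanned 2598 bp (chr2L:12010061-12012658). In replicates 1, 2 and 3 the matching peak had signal values of 12580, 7160 and 11426, and it ranked first in each list. Signal values are used here only to rank peaks within a list, because each list has its own scale.

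The Rh5 region held 5 further members within a span of 9370 bp, nearest to Rh5 or to Hacd1. All 6 were matched in all 3 replicates, and no other thresholded peak lay between them. Upstream of Rh5, 1 peak region carried a pair of summits, 1399 bp and 616 bp from the start, with signal values of 4305 and 1728. The first of this pair had values of 1139, 919 and 2298 in replicates 1, 2 and 3. The second had values of 668, 637 and 444. The weakest member of the region, 763 bp upstream of Hacd1, ranked 6998 in the thresholded list, so the region held both the strongest peak and peaks near the threshold.

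Next in signal was a member 3760 bp from the CG31668 start, on the side of its 3′ end, at chr2L:2202026-2202710, which ranked 8 in the thresholded list and 10, 7 and 16 in replicates 1, 2 and 3. A pair of members lay beside genes of Polycomb repressive complex 1, which keeps developmental genes silent. The member 852 bp upstream of ph-d (chrX:2123772-2124492), which encodes the subunit Polyhomeotic-distal, had signal values of 1816, 1539 and 3289 in replicates 1, 2 and 3 and ranked 30 in the thresholded list. It lies between ph-d and its near-identical tandem copy ph-p, so the placement of reads there is uncertain. The member 4210 bp upstream of Psc (chr2R:12984867-12985552), which encodes another subunit of the complex, had values of 1840, 1826 and 2653, ranked 35, and lay 163 bp from the start of lncRNA:CR44339. The Psc neighbourhood held a further pair of the 12 strongest reproducible members, nearest to CG13321 (rank 18) and CG33798 (rank 43). All of these stood within the 106 strongest peaks of each replicate list.

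Of the remaining strong members, the one 1171 bp upstream of l(3)neo38 (chr3R:11779878-11780590), which encodes a zinc finger protein, ranked 42. The member near CycB, the gene of a mitotic cyclin, lay 3335 bp from its start on the far side of the gene and ranked 51. A member 1299 bp upstream of DNAlig3 (chr3R:12402820-12403412), a DNA ligase gene, ranked 83, and its ranks of 94, 67 and 92 in replicates 1, 2 and 3 were close to one another. That member did not adjoin DNAlig3: its 437 bp interval is bounded by Sol1 and Cyp9f2, which are transcribed toward each other. Members nearest to CG43131 and CG33453 ranked 40 and 49. The member 645 bp upstream of Shrm (chr2R:14307022-14308389), which encodes an actin-binding regulator of cell shape, varied most in rank among the 12. It had signal values of 2642, 1539 and 1422 in replicates 1, 2 and 3, which were ranks 7, 51 and 277, and its summit held 48.5% GC.

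**Figure D1:**
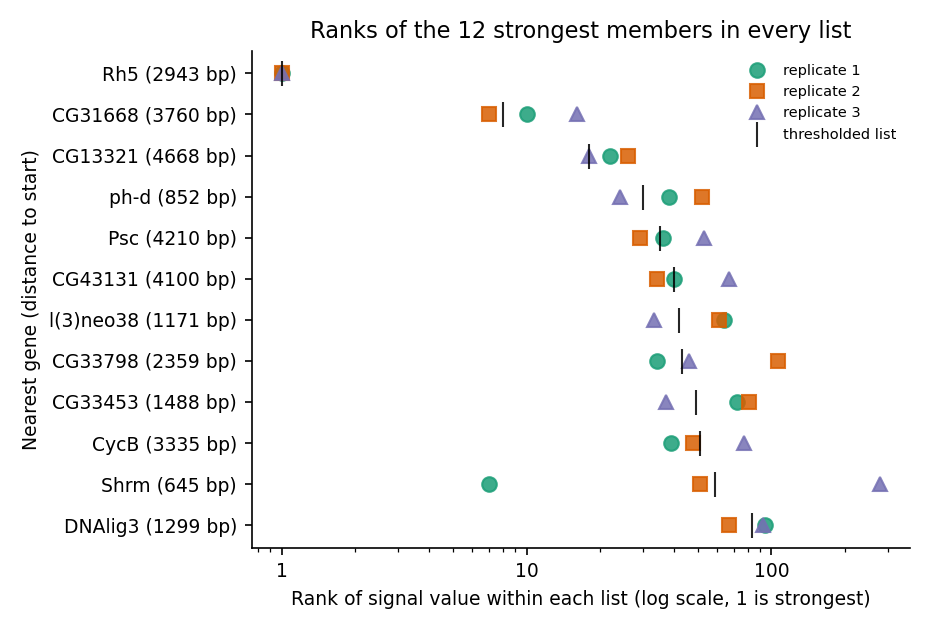
Rank of the signal value (log scale, 1 is the strongest) of the 12 strongest members matched in all 3 replicates, in each replicate list and in the thresholded list. Each row is 1 member, named by its nearest gene and its distance to the start; Rh5 ranked 1 in every list, and Shrm ranged from 7 to 277.

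Across all members the signal values were close to those of the list they came from. The median signal value was 513 (95% interval 486 to 544) for members and 505 (497 to 514) for all thresholded peaks. The lower and upper quartiles of the members were 345 and 873, and the weakest member stood at 252. Peak width had a median of 380 bp, with a range of 121 to 2598 bp, against 404 bp over all peaks. Members made up 13 of the 100 strongest peaks and 453 of the 4529 weakest (10%). Peak regions were shared by 56 members: 22 regions held a pair of member summits and 4 held 3.

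Reproducibility was judged by the summits in the replicate lists, where the 8529 strongest peaks of each were used. A member was matched when a replicate summit lay within 100 bp, and 568 members (65.5%, exact 95% interval 62.2 to 68.7%) were matched in all 3 lists. Over all thresholded peaks the same share was 65.6%, so the members' share was that of the list. The replicates held 691, 726 and 769 of the members, or 79.7%, 83.7% and 88.7%, and replicate 3 held the most. Only 12 members were matched in none of the 3 strongest lists. The thresholded list was itself made from the 3 replicates, so these shares describe how well the lists coincide and are not an independent check. In the whole replicate lists of 30000 peaks, 770 members were matched in all 3, and the same count over all thresholded peaks was not made. The test used for single comparisons over the 3 replicates, the exact two-sided permutation test, has a smallest possible p of 0.25 and so cannot pass 0.05.

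Matching followed signal. All 13 members ranked in the first 100, all 30 ranked from there to 500 and all 45 ranked from there to 1000 were matched in all 3 lists, as were 98 of 103 ranked from there to 2000 (95.1%) and 202 of 223 ranked from there to 4000 (90.6%). The shares of all thresholded peaks in these 5 ranges were 100, 99.5, 96.2, 96.4 and 91.95%. Of the 453 members ranked below 4000, 180 were matched (39.7%), beside 40.1% of all peaks in that range. Matched summits were near one another, with median offsets of 18, 17 and 11.5 bp in replicates 1, 2 and 3. When the rule was applied to the replicate lists themselves, 819, 835 and 874 of the 8529 strongest peaks met it (9.90% ± 0.317, SD, n = 3).

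The limits of the rule cut through a continuous range of peaks. The members closest to the near limit belonged to Syn, the synapsin gene, and to CG10232, the latter at 502 bp, with signal values of 433 and 350. Just outside it lay a peak 500 bp from IA-2 with 305 and a peak 496 bp from CG6044 with 2591. Just inside the far limit lay members 4993 bp from rpr, a pro-apoptotic gene, and 4997 bp from Tollo, a Toll-family receptor gene, with signal values of 647 and 1284. Just outside it lay peaks 5018 bp from CG11374 with 284 and 5053 bp from Ptx1 with 278.

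Members were counted per megabase of eligible sequence, meaning bases in no gene that are nearest to a start at the same distance. Their density was highest close to the start, with 92.8 peaks per Mb up to 1000 bp from it (exact Poisson 95% interval 79.9 to 107). It was 73.8 from there to 1500 bp and 70.2 from there to 2000 bp, and the 6 further bins of 500 bp held between 58.4 and 71.4. Intergenic sequence within 500 bp of a start, outside the rule, held 487 per Mb, and that beyond the far limit, up to 10000 bp, held 59.2. Up to 2000 bp the members' density was 79.9 (72.5 to 88.0), against 63.9 (58.1 to 70.1) from 2000 to 5000 bp, a ratio of 1.25. In the replicate lists the densities were 78.0 ± 3.45 and 61.8 ± 1.77 per Mb and the ratio was 1.26 ± 0.0392 (SD, n = 3, exact permutation p = 0.25). The near bins were thus denser in every replicate, by more than the spread between replicates, although 0.25 is the smallest p this test can give.

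The density near the start lay on the upstream side. Members lay upstream of the nearest start in 647 cases (74.6%, 71.6 to 77.5%), while 69.3% of the eligible bases lie on that side. In the replicates the upstream share was 75.6% ± 0.848 (SD, n = 3). Up to 2000 bp the upstream side held 86.7 peaks per Mb (78.0 to 96.1) and the side beyond the 3′ end of the gene held 54.8 (41.9 to 70.4). From 2000 to 5000 bp the values were 66.2 (58.8 to 74.3) and 60.1 (51.2 to 70.2), and these intervals overlap.

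**Figure D2:**
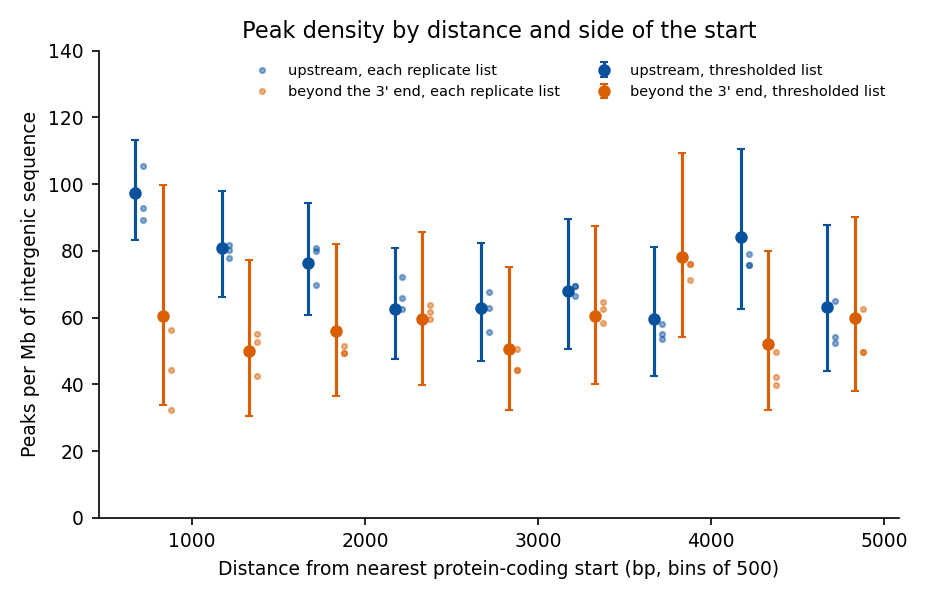
Peaks per megabase of intergenic sequence by distance from the nearest protein-coding start in bins of 500 bp, upstream of the start (blue) and beyond the 3′ end of its gene (orange). Large points are the thresholded list with exact Poisson 95% intervals and small points are the 3 replicate lists; the first upstream bin is highest, at 97.4 per Mb.

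Density also varied with the genes on either side. Intervals between genes transcribed away from each other held 152 members, or 85.8 per Mb (72.7 to 100.6). Intervals between genes transcribed toward each other held 53 members, or 47.5 per Mb (35.6 to 62.1). Tandem intervals held 214 members (64.9 per Mb), and the remaining 448 members (74.0 per Mb) lay next to at least 1 non-coding gene. Divergent intervals have a start at both ends and convergent ones at neither, so this order moves with the upstream share, and the part of either in the other was not tested.

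Crowding of members was near that of all peaks. Another thresholded summit lay within 1000 bp of 274 members (31.6%, 28.5 to 34.8%), beside 29.8% of all thresholded peaks. The members occupied 631 intergenic intervals with a median length of 5585 bp: 472 held 1 member, 110 held 2 and 49 held 3 or more, up to 8. When members no more than 10 kb apart were joined, a distance chosen after the data were seen, 554 blocks resulted, of which 384 were single members and 14 had 5 or more.

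The largest block lay on arm 3R at the Gr93 genes, which encode gustatory receptors, and held 20 members among 22 thresholded peaks over 39891 bp. Gr93a was the nearest start to 9 of them, the most of any gene, and 4 of these lay upstream. The strongest, 3459 bp upstream, had signal values of 820, 787 and 1101 in replicates 1, 2 and 3 and ranked 382. A second, 4201 bp upstream, had values of 531, 589 and 855. The block also reached CASK, which encodes a synaptic scaffold protein, and glec and lsn, and 12 of its 20 members were matched in all 3 replicates. The block on arm 3L at CG7560, CG6149 and CG7557 held 13 members over 28309 bp, of which 9 were matched.

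**Figure D3:**
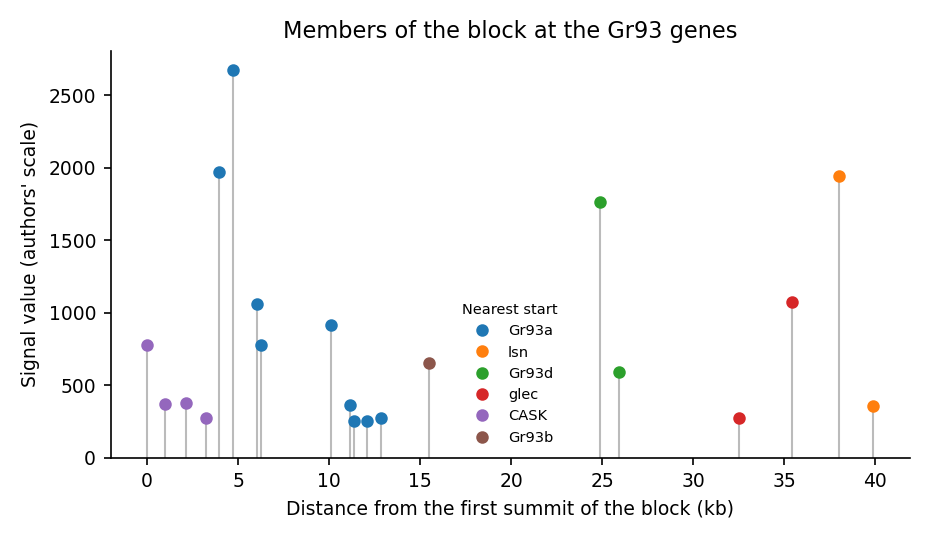
Signal value (the authors' scale, thresholded list) of the 20 members in the block at the Gr93 genes, by distance in kb from the first summit of the block. Colours give the gene with the nearest start; the highest value, 2672, is nearest to Gr93a.

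Of the smaller blocks and groups of members, those at genes with a well-known role are described here, a choice made after their values were seen. Other blocks of 5 or more lay at genes such as CG5953, CG43354, CG4218 and CG15629. The Enhancer of split complex, whose genes respond to Notch signalling, held 5 members on arm 3R and all were matched in all 3 replicates. The strongest of them, 507 bp upstream of E(spl)m2-BFM, had signal values of 1175, 821 and 1639 in replicates 1, 2 and 3. The member 1790 bp upstream of E(spl)malpha-BFM had values of 669, 602 and 1017. All 4 members nearest to tara, a gene of the Trithorax group, lay 1140 to 3776 bp upstream, were matched in all 3 replicates and ranked between 105 and 316. Of these 4, 3 were summits of 1 peak region, chr3R:16221613-16222804. The strongest of the 4 ranked 374, 374 and 40, and the one nearest to the start ranked 170, 126 and 259, in replicates 1, 2 and 3. Upstream of chinmo, which encodes a BTB zinc finger factor of neuronal and stem cell timing, 5 members spanned 3176 bp, of which 3 were matched. The 4 members upstream of shd, whose product makes the active form of ecdysone, spanned 2394 bp, of which 2 were matched.

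The 867 members had 633 different nearest genes, which are 4.54% of the 13945 protein-coding genes. For 476 genes there was 1 member, for 110 there were 2 and for 47 there were 3 or more, and these 47 accounted for 171 members. The nearest gene had a thresholded peak within 500 bp of its own start for 280 members (32.3%, 29.2 to 35.5%). Counted by gene, 203 of the 633 had one (32.1%, 28.4 to 35.9%), beside 26.7% of all protein-coding genes. In the replicate lists the shares by member were 33.2%, 31.3% and 30.1%. Beside them, 26.7%, 27.9% and 26.7% of all protein-coding genes had such a peak, which are shares by gene. Members upstream of the start had such a gene in 228 of 647 cases (35.2%, 31.6 to 39.1%), and members beyond the 3′ end in 52 of 220 (23.6%, 18.2 to 29.8%).

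The nearest genes were also described by 21 lists of known function. Of the 818 listed genes, 60 were nearest to a member (7.33%, 5.64 to 9.34%), beside the 4.54% of all protein-coding genes. Listed developmental regulators were among the highest. Of 10 pair-rule genes, which set up body segments, 3 were nearest to a member, namely the fork head genes slp1 and slp2 and the runt-domain gene run. Of 20 dorsoventral genes there were 5, among them Doc2, which encodes a T-box factor, zen, a homeobox gene, and dpp, which encodes a BMP ligand. Of 29 genes of receptor tyrosine kinase and Notch signalling there were 6, among them aop and pnt, an ETS repressor and an ETS activator, and fng, which modifies the Notch receptor. The member 4322 bp upstream of slp2 ranked 170, and that 1532 bp upstream of aop ranked 562. Members nearest to pair-rule genes had a median signal value of 1824 (4 members), those of dorsoventral genes 444 (5 members) and those of the signalling genes 538 (8 members), beside 513 over all members. The pair-rule members differed widely, from 299 at run to 3016 at slp1 and 3733 at slp2, and slp1 and slp2 are neighbouring genes. With so few genes a list, the exact intervals were wide, from 6.67 to 65.2% for the pair-rule genes.

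Other developmental and tissue lists held similar counts. Muscle genes numbered 5 of 23, led by the actin genes Act87E and Act57B and the troponin C gene TpnC47D. Neural genes numbered 5 of 28, led by the Sox gene D, and axon guidance and adhesion genes 5 of 28, led by robo2. Hemocyte and fat body genes numbered 3 of 18, led by the GATA factor gene srp, and ecdysone genes 3 of 19, led by shd. Homeotic genes with their cofactors numbered 1 of 12 (zen, which is also on the dorsoventral list, 8.33%, 0.211 to 38.5%). Gap, terminal and maternal genes numbered 2 of 14 (bcd and btd), segment polarity genes 2 of 16 (fz and wg) and Polycomb and Trithorax genes 3 of 28 (ph-d, Psc and psq).

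The remaining lists were near or under the background share. Cytosolic ribosomal protein genes numbered 1 of 93 (RpS23, 1.08%, 0.0272 to 5.85%) and mitochondrial ones 1 of 73 (mRpL21). None of 23 insulator protein genes, 16 heat shock genes or 20 antimicrobial peptide genes was nearest to a member. Cuticle protein genes numbered 6 of 118, led by Cpr65Eb, chemoreceptor genes 8 of 179, led by Gr93a, synapse and ion channel genes 1 of 32 (Ddc) and phototransduction genes 1 of 22 (Rh5). Genes with long intergenic neighbourhoods offer more eligible bases, and interval length was not taken into account in these counts.

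Non-coding genes were also close to some members. A start of a non-coding gene lay within 500 bp of 80 members (9.23%, 7.38 to 11.4%), beside 6.26% of all thresholded peaks and 6.63% of the eligible bases. Applied to the replicate lists, the same count gave 9.74% ± 0.457 (SD, n = 3). Of the 80, 53 lay beside the start of a non-coding RNA gene, the strongest being the member next to lncRNA:CR44339 near Psc. Transposable elements gave 13, the strongest 316 bp from an INE-1 element on chromosome 4 and nearest to zfh2, which encodes a zinc finger and homeodomain factor. That member had signal values of 822, 472 and 524 in replicates 1, 2 and 3. Reads in repeated elements can be placed at more than 1 copy, so such peaks are uncertain. The 9 tRNA cases were led by tRNA:Ala-TGC-2-1 (rank 2397), and the rest were 2 pseudogenes led by CR31032, 2 snRNA genes led by snRNA:U2:34ABb and the snoRNA gene snoRNA:Or-CD4.

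By chromosome arm, members were densest on 3L among the 5 large arms. Arm 3L held 243 members, or 95.9 per Mb of eligible sequence (84.2 to 109). Arms 2L, 2R, X and 3R held 178, 146, 109 and 185 members, or 70.5, 65.5, 60.1 and 60.0 per Mb. In the replicate lists arm 3L had 94.1 ± 4.11 per Mb and the next, 2L, had 71.1 ± 2.64 (SD, n = 3). Without the blocks of 5 or more members, 3L still had 86.1 per Mb (75 to 98.3). The next of the 5 large arms was then 2R, with 62.8 (52.8 to 74.1). Arm X had 60.1, 2L had 54.6 and 3R had 50.3. The small chromosome 4 held 6 members, and its interval, 35.5 to 210 per Mb, was too wide to order it. The strongest member on 3L lay 637 bp upstream of RasGAP1, which encodes a GTPase-activating protein for Ras, with signal values of 1523, 1225 and 2095 in replicates 1, 2 and 3.

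GC content was low at the summits of the members and high on both sides. The summit base with 50 bp to either side held 29.6% GC on average, and windows of the same length centred 300 bp away held 44.4%, a difference of -14.8 percentage points. In the replicate lists the summits held 30.6% ± 0.488 and the flanks 44.3% ± 0.0860, a difference of -13.7 ± 0.574 points (SD, n = 3, exact permutation p = 0.25). The summit was below its own flanks in 734 members (84.7%, 82.1 to 87.0%). Single members ranged from 10.9% to 64.4% GC with a median of 28.7%, so the Shrm summit described above was above the 95th percentile of 46.5%. The longest run of A or T bases had a median of 11 bases at the summits and 7 in the flanks. Over all thresholded peaks these medians were the same, and GC content was 31.3% at the summit and 44.2% in the flanks.

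The flanks were also above more distant sequence. In windows of 51 bp the mean was 29.4% at the summit, 44.1% and 44.8% at 300 bp to either side, and 40.7% and 41.2% at 1000 bp. Peaks in the other classes had the same form. Intergenic peaks more than 5000 bp from a start held 29.6% at the summit and 46.5% in the flanks, and peaks within 500 bp of a start held 32.6% and 43.6%. Over the replicates, the members' summits were 0.430 ± 0.271 points above the former and 2.45 points below the latter, with the difference coded as members minus promoter peaks at -2.45 ± 0.941 (SD, n = 3, exact permutation p = 0.25 for each). How GC content affects the recovery of DNA in sequencing was not tested here.

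**Figure D4:**
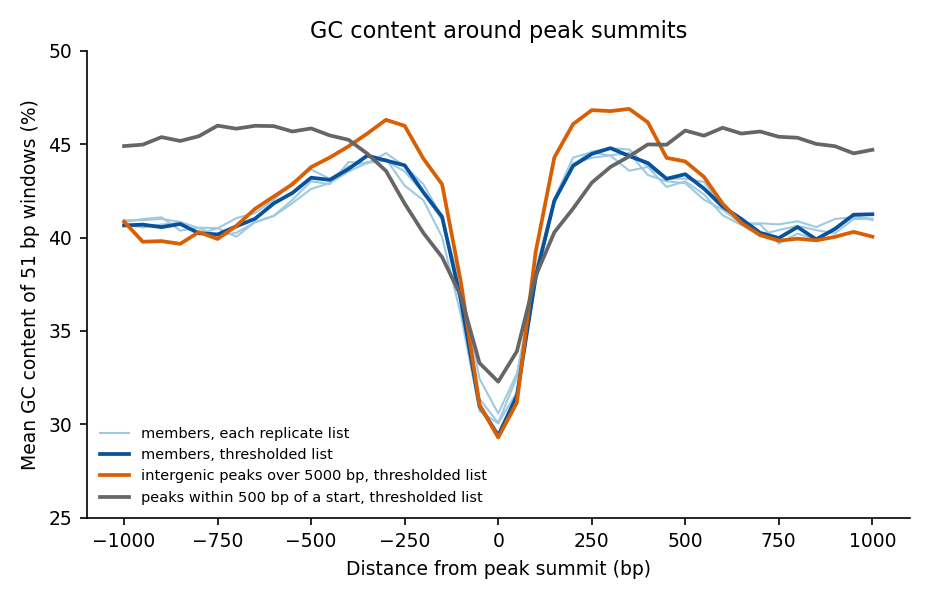
Mean GC content (percent) of 51 bp windows by distance in bp from the summit, for members in the thresholded list (dark blue) and in each replicate list (light blue), for intergenic peaks over 5000 bp from a start (orange) and for peaks within 500 bp of a start (grey). Members drop from 44.1% and 44.8% at 300 bp to 29.4% at the summit.

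Known sequences were counted in the same windows, on both strands, for 24 short sequences bound by fly factors or common in fly promoters. The GAGA factor sequence GAGAG stood in 6.34% of member summits (4.81 to 8.18%) and in 14.8% of flanks, beside 8.29% of all thresholded summits. In the replicates it stood in 7.39% ± 1.77 of summits and 14.9% ± 0.800 of flanks (SD, n = 3). The CA repeat CACACACA stood in 0.577% of member summits and 4.21% of flanks, beside 0.95% of all summits, and in the replicates in 1.04% ± 0.330 and 4.2% ± 0.381. Both were thus less frequent at the summit than beside it in every replicate. GAGAG and the CA repeat hold G or C letters, and the members' GC was low at the summit. The part of base composition in these shares was not tested.

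The homeodomain sequence and the TATA box went the other way. The homeodomain sequence TAATTA stood in 14.3% of member summits (12 to 16.8%) and 6.40% of flanks, beside 12.3% of all summits. In the replicates the shares were 13.9% ± 1.62 and 5.54% ± 0.391 (SD, n = 3). The TATA box (TATAAAAA, TATAAAAG, TATATAAA or TATATAAG) stood in 13.6% of member summits (11.4 to 16.1%) and 3.86% of flanks, beside 10.9% of all summits, although none of these summits is within 500 bp of a protein-coding start. In the replicates its shares were 11.7% ± 1.02 and 3.96% ± 0.228. TAATTA has only A and T letters and the TATA box almost only, and the members' low GC moves with both, so the part of base composition in these shares was not tested.

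Of the 24 sequences, 10 were less frequent at the summit than in the flanks in the thresholded list and in all 3 replicates, 8 were more frequent in all 4 and 6 were mixed. Beside GAGAG and the CA repeat, the 10 included the sequence CACATG of Twist (3.23% against 5.59%), the E-box CACGTG (0.231% against 1.27%), the BEAF-32 sequence CGATA (8.88% against 10.2%) and the sequence GCCATNNC or GCCATNNT of Pho, a DNA-binding Polycomb protein (5.88% against 9.98%). Over all thresholded summits CACATG stood in 3.17%, CACGTG in 0.551%, CGATA in 12.9% and the Pho sequence in 5.62%. The others of the 10 were those of Bicoid (GGATTA), Dorsal (GGGNNNNCC with A or T at each N), Grainyhead (ACCGGTT) and AP-1 (TGACTCA or TGAGTCA). In that order they stood in 2.42%, 0.346%, 0.115% and 0.692% of member summits, against 2.83%, 0.75%, 0.173% and 0.865% of flanks. Dorsal, Grainyhead and AP-1 had only 3, 1 and 6 summits. Over all thresholded summits the 4 shares were 3.26%, 0.504%, 0.246% and 0.68%. Beside TAATTA and the TATA box, the 8 included the sequence of Caudal, a posterior homeodomain factor (TTTATNN with G or T, then A or G, at the Ns), in 25.4% of summits against 14.2% of flanks. They also included the run AAAAAAAA (8.07% against 5.82%), GAANNTTC of heat shock factor (3.34% against 2.13%), AGATAAG of GATA factors (1.85% against 1.67%), the promoter sequence named Motif 1, in 1 summit, and TATCGATA. Over all thresholded summits the Caudal sequence stood in 22.5%, AAAAAAAA in 7.42%, GAANNTTC in 3.24% and AGATAAG in 1.48%. The mixed ones were GGTCACAC, which lies within Motif 1, CAGCTGAT or CAGCTGTT, CAGGTAG of Zelda, the core of CTCF (AGNNGGC with A or G, then G or T, at the Ns), TTTTTTG of Hunchback and TTCNNNGAA of STAT92E. Of the mixed ones, TTTTTTG stood in 6.92% of both summits and flanks, beside 7.45% of all thresholded summits. In the replicates it stood in 6.67% ± 0.603 and 7.32% ± 0.167 (SD, n = 3). The DNA replication-related element TATCGATA, a promoter sequence that holds CGATA within it, stood in 6 member summits (0.692%, 0.254 to 1.5%) and 0.231% of flanks. It stood in 1.43% of all thresholded summits and in 3.29% of those within 500 bp of a start. The part of base composition in the shares of the 24 sequences was not tested. A sequence match is a description of these windows and not a bound site.

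**Figure D5:**
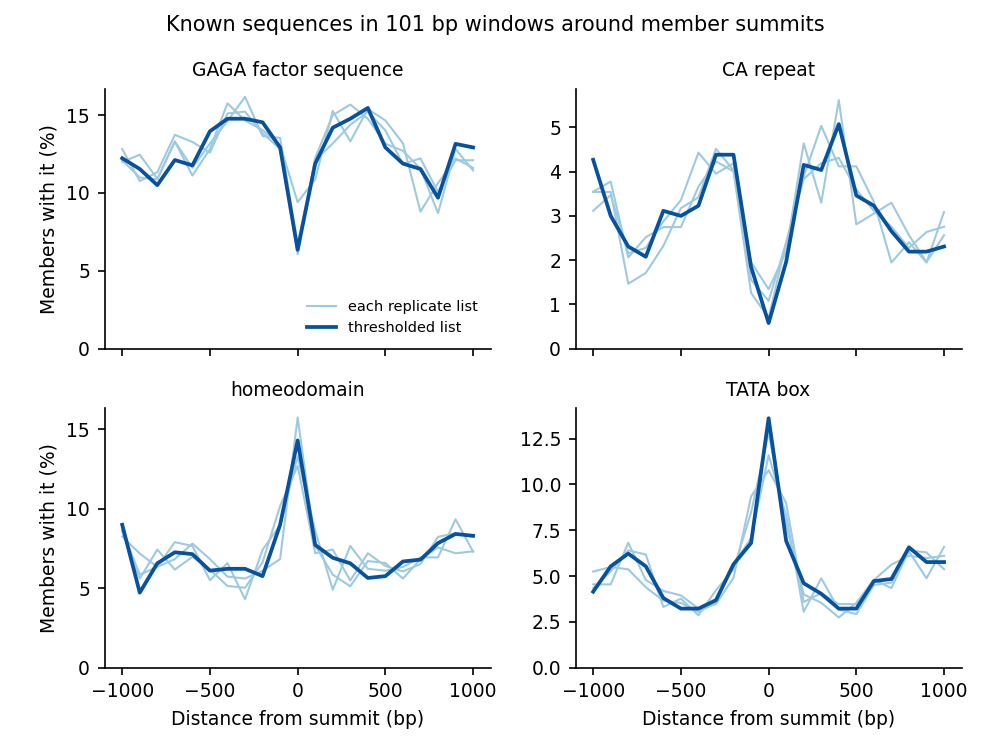
Share of members (percent) whose window, reaching 50 bp to either side of its centre, holds the GAGA factor sequence, the CA repeat, the homeodomain sequence or the TATA box, by distance in bp from the summit, in the thresholded list (dark blue) and each replicate list (light blue). In the thresholded list GAGAG drops to 6.34% and the CA repeat to 0.577% at the summit, while the homeodomain sequence reaches 14.3% and the TATA box 13.6%.

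Sequences of 8 bases were ranked on the 433 members of arms 2L, 2R and X and counted on the 434 of arms 3L, 3R and 4. The 10 best ranked consisted of A and T alone, and all 10 were more frequent at the summits than in the flanks on the arms not used to rank them. Summits held less GC than flanks on average, so this count cannot separate these sequences from low GC content. The first, AAAATATA, stood in 36 of 434 summits (8.29%, 5.88 to 11.3%) and on average in 8 flanks (1.84%). The largest relative difference of the 10 was that of ATAATATA, with 30 summits (6.91%) against 0.576% of flanks. Others of the 10 stood in more summits, up to 42 for AAATAAAA. With the arms exchanged, the 10 best ranked again held only A and T, but only 2 of the 10, TTAAATAA and AATAAATA, were ranked both times, and AAAATATA was not among them. Members of every rank range were low in GC, from 27.8% for ranks from 1000 to 2000 to 30.9% for ranks below 4000.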

How the data were processed

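Peak lists of CG18262-eGFP ChIP-seq were analysed: 1 list per replicate and 1 pooled list, of 30000 peaks each, and the thresholded list. The deposited lists give the authors' signal value per peak, on a scale that is not stated. They also give the authors' −log10 q-value, which was a single value throughout the thresholded list and was not used. What aligner, caller and read filters were used is not given in the sources used here, so their effect on peaks in repeats or in DNA of low GC is unknown. No identical peaks were found between the replicate lists. Read depth is unknown, and intervals (95%, exact binomial or Poisson, order statistics for medians) cover counting error only.

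Positions came from Ensembl release 115 (BDGP6.54) and sequence from RefSeq's assembly of the same build, with Python 3.11.15, numpy 2.4.6, pandas 2.3.3, scipy 1.17.1 and matplotlib 3.10.9. Scripts were tested on simulated data. Paired differences over the 3 replicates were tested by the exact two-sided permutation of signs. The members and lists were chosen with earlier results of these data known. Genes named are those of the 12 strongest members matched in all 3 replicates, the strongest of each arm, genes nearest to 3 or more members, the 3 strongest of each list and the strongest beside each kind of non-coding start. Members at the limits of the rule, and those of the Enhancer of split and Gr93 blocks, were named after their values were seen. Alternatives varied the peaks used, summit or midpoint, start set, distances, windows, flanks and replicates.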

Additional observations from a re-analysis of the deposited data

Results flagged for a closer look

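Of the pooled peaks outside the thresholded list, 2220 met the same position rule, and 528 of them (23.8%, exact 95% interval 22 to 25.6%) were matched within 100 bp in all 3 whole replicate lists. They were singled out because the comparisons above do not use them and no control was analysed. The same share over all pooled peaks outside the thresholded list was not computed. The 23.8% therefore cannot be called particular to peaks at these positions. Groups of 3 replicates are too small for a check of single outlying samples.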

How the results depend on the processing

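Depth is unknown, so weak peaks could not be weighed by counts. No paired analysis was possible because there was only 1 group, so no groups could be paired by replicate number; the paired differences reported compare positions within each replicate. Of the recomputed main results, 48 values stayed within 1.5 times the count or within the interval or replicate SD of the reported value, and 27 did not. A reversal was scored only for the GC difference, which stayed negative under every alternative run. With the 4000 strongest peaks there were 414 members and 38 listed genes in place of 60, the share matched in all 3 replicates was 93.7%, the upstream share 78.3%, the share with a promoter peak 16.2% (with promoter peaks also limited to that set) and the GC difference -16.9 points. The matched share was 48.7% for summits within 50 bp, 71.5% within 200 bp, 74.9% for peaks sharing 1 bp and 88.8% in the whole replicate lists. Members over 1000 bp from a start were upstream in 69.9%. The upstream share of eligible bases at those distances was not computed, and the 69.3% given above covers the whole distance range of the rule. The GC difference was -12.2 points in windows reaching 100 bp to either side, -16.0 for members with no other summit within 1000 bp and -11.3 with flanks at 1000 bp, a setting chosen after seeing the data. The share with a promoter peak was 15.2% within 200 bp and 53.4% within 1000 bp, where a member up to 1000 bp away can count for its own gene. The share beside a non-coding start was 4.73% within 200 bp and 17.4% within 1000 bp. Under these alternatives the shares over all thresholded peaks, all genes or all eligible bases were not computed. The values therefore show only how the members' own shares move with the setting. Leaving out each replicate, with members kept when matched in both others, gave matched shares of 71.5 to 75.4%, a median signal value of 637 to 652 and GC differences of -16.3 to -16.0 points; fewer lists to match raise the first, and matched members are the stronger ones. Leaving out blocks of 5 or more members, chosen after seeing the data, left 766 members. Directions of 5 single sequences (GAGAG, the CA repeat, TAATTA, the TATA box and TATCGATA) held under all alternatives run. Sizes moved: the summit minus flank difference of the CA repeat was -3.63 points in the main setting and -2.71 with flanks at 1000 bp. For GAGAG the values were -8.42 and -6.23, for TAATTA 7.90 and 5.65, and for the TATA box 9.75 and 8.65. For TATCGATA both were 0.461.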
